A study of Mus musculus with 38 samples.

Results

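Stressed male mice were compared with stressed female mice across the genes of the 19 autosomes, in RNA of the adBNST, the anterodorsal division of the BNST (bed nucleus of the stria terminalis), which belongs to the extended amygdala of the forebrain. The comparison takes in 18 of the 38 libraries of the study, 9 from stressed females (FS1 to FS9) and 9 from stressed males (MS1 to MS9), placed in their groups by their labels. Of 25230 genes in the deposited counts, 16309 had enough reads to be tested, and 15681 of those lie on chromosomes 1 to 19. One male library, MS5, held RNA of the choroid plexus, so results are given with and without it.

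All mice were wild type, and the labels give neither their age nor their strain. The stressed mice had been through 6 weeks of chronic variable mild stress, in which changes of lighting, bedding and cage, cold, swimming, restraint, isolation and predator sounds came in random order. The 10 control females (FC) and 10 control males (MC) had not, and they give the same comparison of the sexes without stress; their libraries also entered the filter, normalisation and estimate of spread behind the stressed p-values. RNA came from microdissected tissue and was sequenced as stranded, poly-A selected libraries. The labels do not say that each library is a separate animal, so the p-values measure the spread between libraries, part of which may be technical. In tissue of this kind fewer cells of a type and less RNA per cell cannot be told apart.

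The BNST relays signals from the amygdala and hippocampus to the hypothalamus and brainstem and takes part in sustained fear, in anxiety-like states and in social behaviour. Parts of it differ between the sexes in size and in cell number. During development testosterone is converted to estradiol in the male brain by aromatase, the product of Cyp19a1, and estradiol acts through estrogen receptors to set up much of this difference. Many of its neurons release GABA together with peptides.

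The sex labels held in all 18 libraries. Xist, the X-inactivation RNA, lay between 665 and 2156 CPM (counts scaled to library size) in the stressed females and at most at 0.713 in the males, and Ddx3y, Eif2s3y, Kdm5d and Uty, genes of the Y chromosome, were at 0 in every female. All 5 tested genes of the Y chromosome passed (100%), and 2 of 602 on the X (0.332%), Xist and Sytl4. Library totals ran from 14.6 to 35.3 M counts in stressed females (median 28.4) and from 15.9 to 36.1 M in stressed males (median 22.5). Genes known from this nucleus were detected in every stressed library, among them Crh at 4.72 CPM or more, Pdyn at 103 or more and Esr1 at 9.31 or more.

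Several libraries stood apart. MS5 had 2878 CPM of Ttr, the transthyretin gene of the choroid plexus, against 0.235 to 41.1 in the other 17. FS1 and FS2 were rich in myelin transcripts, with 10250 and 13350 CPM of Mbp against 1835 to 5179 in the other 16 libraries, and they shared this with controls FC1, FC6 and MC3. MS7 and MS8 had the lowest summed markers of the striatum of all 18 (1366 and 1213 CPM) and the highest of the thalamus (458.4 and 438.4 CPM). Reads at Rn45s, the ribosomal RNA precursor, were at 1430 to 2563 CPM in FS3 to FS5 and MS1 to MS4 and at 7420 to 27310 in the other 11, a split that takes in both sexes.

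**Figure D1:**
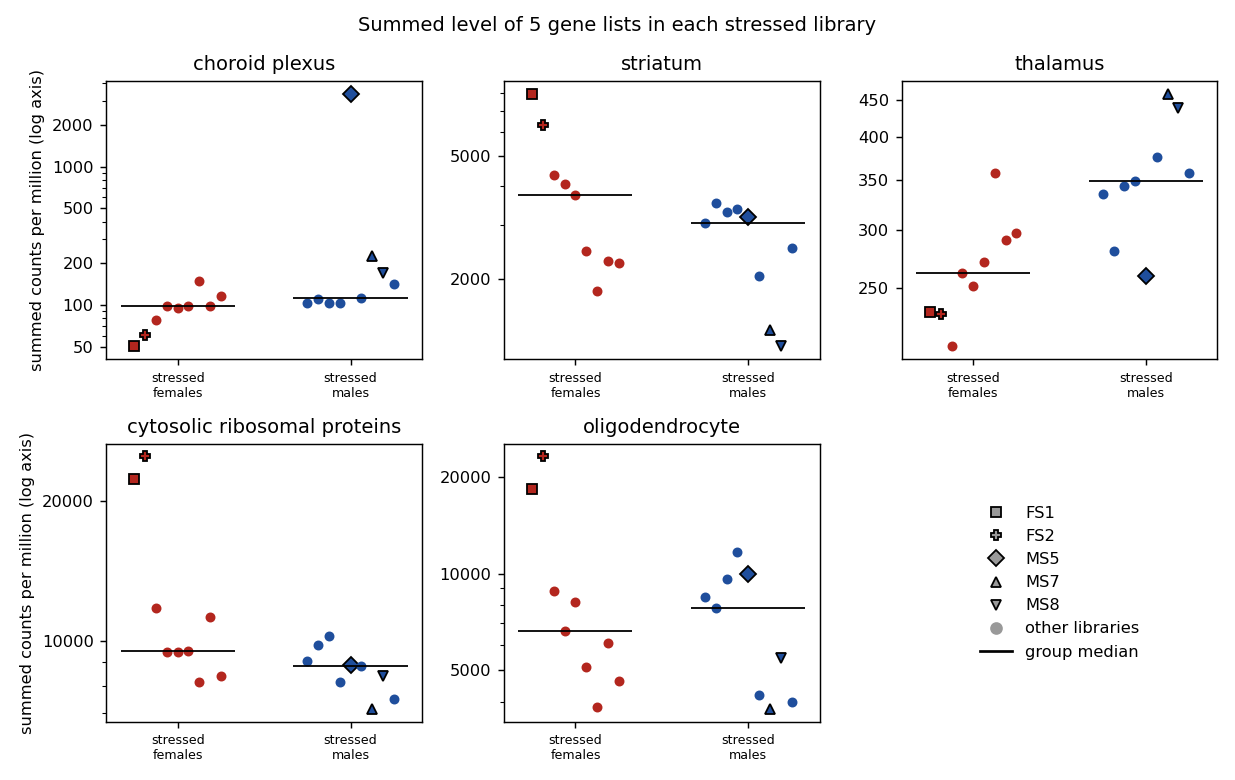
Summed CPM (log axis) of 5 gene lists in each stressed library. MS5 stands alone for choroid plexus (3367), FS1 and FS2 for ribosomal protein and oligodendrocyte genes, and MS7 and MS8 lie at the low end for striatum and the high end for thalamus.

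Few autosomal genes passed the threshold between the sexes under stress, and all that did were higher in males. Cckar and Hcrtr1, receptors for the peptides cholecystokinin and orexin, Gal, which encodes galanin, Greb1, a cofactor of the estrogen receptor, and Ppp1r3e, a glycogen-targeting subunit of protein phosphatase 1, rose in males and did so without MS5 too. Ttr and Kcnj13, a potassium channel of the choroid plexus, also passed, and only while MS5 was included. In edgeR's quasi-likelihood test 7 of 15681 autosomal genes passed at an adjusted p under 0.05 (0.0446%). None was lower in males, although 1264 genes had an unadjusted p under 0.05 in that direction (8.06%) against 483 in the other (3.08%); DESeq2 called 1 gene lower and limma voom 0. Without MS5, 5 of 15759 genes passed (0.0317%), again all higher in males, and 1586 had an unadjusted p under 0.05 (10.1%), against 1747 with MS5 (11.1%).

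The count itself moved with single libraries. It was 2 without FS3, 3 without FS4 or without FS9, 4 without FS2, without FS5 or without MS7, and 5 to 7 without any other library. Cckar and Ppp1r3e passed in each of these 18 fits. With the 18 stressed libraries fitted alone 3 of the 7 passed, Cckar, Ppp1r3e and Greb1. DESeq2 gave 11 genes and limma voom with quality weights 12.

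**Figure D2:**
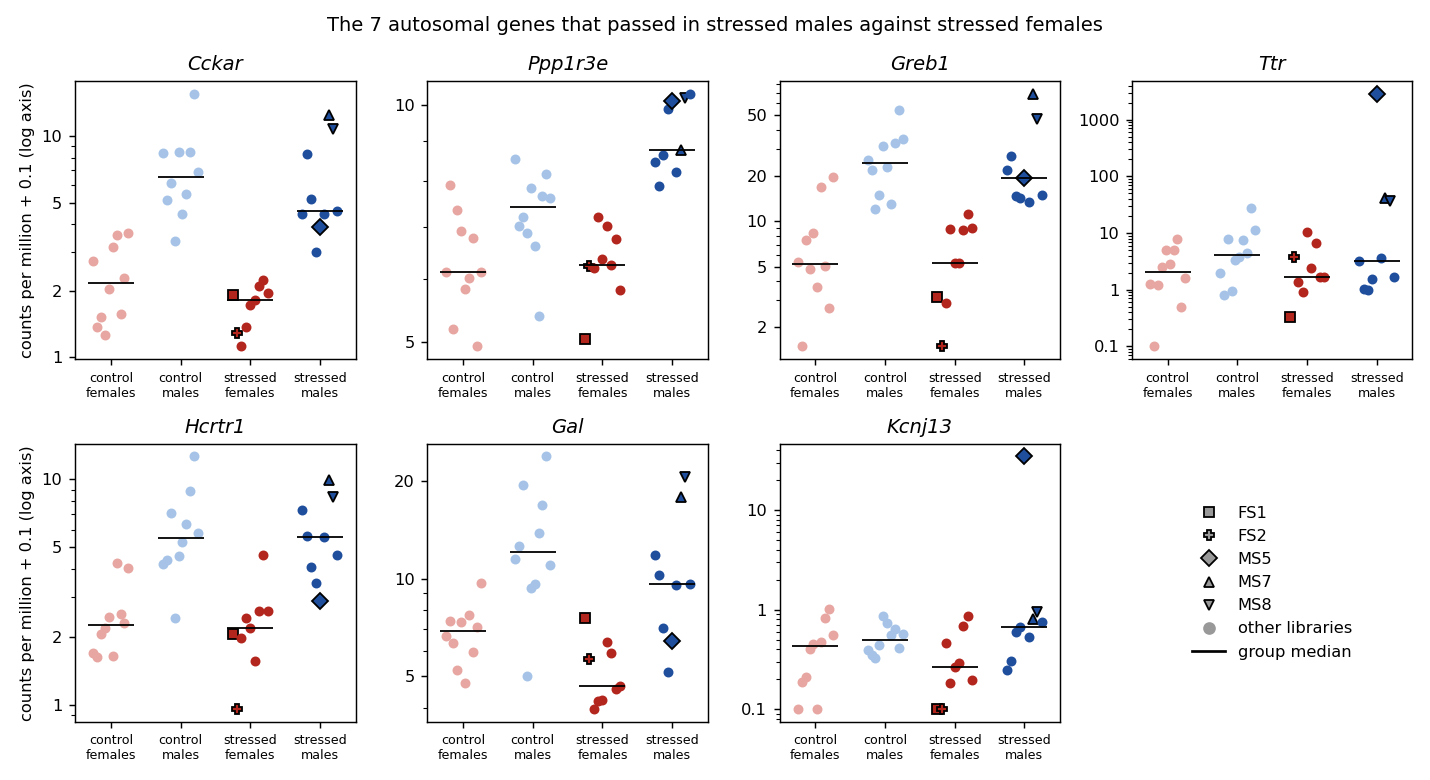
CPM plus 0.1 (log axis) of the 7 autosomal genes that passed, one point per library in control and stressed females and males, with group medians as lines and 5 libraries marked. Every stressed male lies above every stressed female for Cckar, Ppp1r3e and Greb1, and MS5 alone reaches 2878 CPM for Ttr and 34.5 for Kcnj13.

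In 3 genes every stressed male lay above every stressed female (0.0191% of autosomal genes), and these were Cckar, Ppp1r3e and Greb1. Without MS5 8 genes did so (0.051%). Cckar (chr5:53697776-53707705 in GRCm38, minus strand) encodes the type A receptor for cholecystokinin. Stressed females had a lowest level of 1.02, a median of 1.71 and a highest level of 2.14 CPM of Cckar, and stressed males had 2.88, 4.51 and 12.4. The females were tightly grouped, while MS7 and MS8 stood above the other males. The log2 difference was 1.94 ± 0.28 (SE, n = 9 and 9; edgeR adjusted p = 9.18e-05). It was 2.02 without MS5 (adjusted p = 5.2e-05) and 1.69 ± 0.26 in the control mice (adjusted p = 0.00027). Over all alternatives the adjusted p of Cckar ran from 5.77e-09 to 0.127, the last among the libraries numbered 6 and above, where the difference was 2.06.

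Ppp1r3e (chr14:54872669-54877550, minus strand) directs protein phosphatase 1 to glycogen and so favours glycogen storage. Its levels were 4.94, 6.15 and 7.11 CPM (lowest, median, highest) in stressed females and 7.77, 8.67 and 10.2 in stressed males. The difference was small and both groups were narrow, with MS7 at the male median. Ppp1r3e differed by 0.54 ± 0.0985 on the log2 scale (adjusted p = 0.00494), by 0.53 without MS5 (0.0149) and by 0.21 ± 0.093 in controls, where it did not pass (adjusted p = 1). A test of the difference between the stressed and control values gave an unadjusted p of 0.0198 and an adjusted p of 0.845. In the number sets Ppp1r3e differed by 0.542 in libraries 1 to 5 and by 0.547 in those from 6 up, passing in neither (adjusted p = 0.335 and 1). It also did not pass without the 5 myelin-rich libraries and MS5 together (0.479, adjusted p = 0.0953), a setting chosen after the data were seen.

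Greb1 (chr12:16670615-16800886, minus strand) is a textbook target of estradiol and is known to be higher in males in sexually dimorphic nuclei of the mouse brain. In stressed females it was at 1.39 CPM at the lowest, 5.18 at the median and 11.02 at the highest, and in stressed males at 13.4, 19.2 and 69.5. The groups did not overlap, and MS7 (69.5) and MS8 (47.2) were far above the rest of the males. Greb1 differed by 2.12 ± 0.42 on the log2 scale (adjusted p = 0.0164), by 2.18 without MS5 (0.0149) and by 1.81 ± 0.39 in controls (0.0516). The call was lost without FS3 (adjusted p = 0.0532), without MS7 (0.0864) and without the 5 myelin-rich libraries (1.90, 0.103). It differed by 2.17 in libraries 1 to 5 and by 2.11 in those from 6 up, and its adjusted p over all alternatives ran from 0.000665 to 1. The antisense model Gm48140 overlaps Greb1, and since the strand setting of the counting is not given, reads of the pair may not have been separated.

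Hcrtr1 (chr4:130130217-130139359, minus strand) encodes the type 1 receptor for orexin, a peptide of the lateral hypothalamus that acts on arousal. Stressed females had 0.859, 2.09 and 4.55 CPM of Hcrtr1 (lowest, median, highest) and stressed males 2.81, 5.45 and 9.90. Only FS8 among the females lay above the lowest male, and that male was MS5. The log2 difference of Hcrtr1 was 1.33 ± 0.28 (adjusted p = 0.0358), 1.43 without MS5 (0.0149) and 1.34 ± 0.26 in controls, where it passed (0.0164). Of the 18 fits that each left out 1 library 10 lost the call, those without FS1 to FS6, FS9, MS1, MS7 or MS8, with adjusted p of 0.0606 (FS4) to 0.138 (MS7). Hcrtr1 also did not pass with the 18 stressed libraries alone (1.33, adjusted p = 0.0747), without the 5 myelin-rich libraries (1.20, 0.188) or in a fit of autosomal genes alone (1.34, 0.0661). It differed by 1.32 in libraries 1 to 5 and by 1.36 in those from 6 up, and the adjusted p over all alternatives ran from 0.00144 to 1.

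Gal (chr19:3409915-3414544, minus strand) encodes galanin, a peptide of hypothalamic and brainstem neurons that is under estrogen control in several tissues. Its levels were 3.87, 4.57 and 7.46 CPM in stressed females and 5.08, 9.55 and 20.5 in stressed males. Here the groups overlapped: 6 males lay above the highest female and 5 females below the lowest male. Gal differed by 1.08 ± 0.23 on the log2 scale (adjusted p = 0.0428), by 1.17 without MS5 (0.0149) and by 0.97 ± 0.22 in controls (0.0673). Leaving out FS2 to FS5, FS8, FS9, MS1 or MS7 to MS9 lost the call, with adjusted p of 0.0517 (MS9) to 0.225 (MS8, where it differed by 0.913). Gal also did not pass with the 18 stressed libraries alone (1.08, adjusted p = 0.108) or in a fit of autosomal genes alone (1.09, 0.0661). It differed by 0.705 in libraries 1 to 5 and by 1.44 in those from 6 up, and the adjusted p over all alternatives ran from 0.00265 to 0.737. Gal was 1 of 2 genes, with Cckar, that still passed without the 5 myelin-rich libraries and MS5 together (1.26, adjusted p = 0.0228).

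Cckar, Greb1, Hcrtr1 and Gal had the same pair of males on top. MS7 and MS8 were the 2 highest males for these 4 of the 5 genes that passed with and without MS5, and also for Cyp19a1, Esr1 and Esr2. These 2 libraries also had the lowest sums of the striatal list and the highest of the thalamic list among the stressed libraries. The part of this in the differences was not tested. Without both of them Cckar differed by 1.55 (adjusted p = 0.00259) and Ppp1r3e by 0.535 (0.0297), while Greb1 (1.54, adjusted p = 0.488), Hcrtr1 (1.07, 0.488) and Gal (0.737, 0.737) no longer passed. This setting was chosen after the values were seen, and dropping the highest males lowers a difference by construction.

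Promoter windows of 250 bases before to 50 after the start were matched by symbol in RefSeq (GRCm38.p6) for 4 of the 7 genes (Greb1, Hcrtr1, Gal and Kcnj13). The window at the most upstream start in that table is shown for Greb1, Hcrtr1 and Gal, because Greb1 and Gal are known estrogen targets. The search covered the estrogen response element (GGTCA and TGACC held 3 bases apart) and the half-site AGGTCA or TGACCT, which can overlap the full element. It also covered the androgen response element (AGAACA and TGTTCT held 3 bases apart). No window of Greb1, Gal or Hcrtr1 held the full estrogen element or the androgen element. The half-site, in capitals, was in the windows shown for Greb1 (from position -88 to the start) and Hcrtr1 (from -108) and not in that of Gal. The start used for Hcrtr1 lies inside its gene model, which ends at 130139359, so the half-site there is within the gene model. Among 32851 windows 16.3% held the half-site, 0.07% the full estrogen element and 0.009% the androgen element. The windows below are chr12:16800837-16801136, chr4:130139113-130139412 and chr19:3414495-3414794, all on the minus strand.
Greb1: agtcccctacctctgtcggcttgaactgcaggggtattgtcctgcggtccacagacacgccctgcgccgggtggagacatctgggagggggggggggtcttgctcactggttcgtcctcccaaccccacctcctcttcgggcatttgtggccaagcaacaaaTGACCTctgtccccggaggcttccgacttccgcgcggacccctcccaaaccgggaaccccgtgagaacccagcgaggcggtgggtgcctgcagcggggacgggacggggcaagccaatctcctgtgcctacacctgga
Hcrtr1: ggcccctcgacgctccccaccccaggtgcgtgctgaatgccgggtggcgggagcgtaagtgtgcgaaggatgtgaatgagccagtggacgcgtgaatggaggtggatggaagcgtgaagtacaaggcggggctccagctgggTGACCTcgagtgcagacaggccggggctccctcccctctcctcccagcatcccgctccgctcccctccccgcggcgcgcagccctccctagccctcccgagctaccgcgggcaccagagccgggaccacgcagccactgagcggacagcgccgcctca
Gal: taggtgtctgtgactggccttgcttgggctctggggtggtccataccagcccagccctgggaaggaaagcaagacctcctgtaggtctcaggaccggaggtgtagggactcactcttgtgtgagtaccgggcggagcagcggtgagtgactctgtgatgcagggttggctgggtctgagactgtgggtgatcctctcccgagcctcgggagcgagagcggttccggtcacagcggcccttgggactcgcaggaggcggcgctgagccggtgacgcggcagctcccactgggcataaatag
A match of these letters is a description of the window only.

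Ttr and Kcnj13 carried the mark of 1 library. Ttr encodes transthyretin, the thyroid hormone carrier that choroid plexus cells secrete into the cerebrospinal fluid. Stressed females had 0.235, 1.57 and 10.3 CPM of Ttr (lowest, median, highest) and stressed males 0.907, 3.11 and 2878. After MS5 came MS7 with 41.1 and MS8 with 36.7, and the remaining 6 males fell within the range of the females. The log2 difference of Ttr was 6.66 ± 1.32 (adjusted p = 0.0164) and 1.82 ± 0.78 without MS5 (adjusted p = 0.46). The call was also lost without FS3 (0.0532), FS4 (0.0523) or FS9 (0.0528). In DESeq2 the difference was 1.71 (adjusted p = 0.339) and in limma voom 1.41 (0.894). Both can discount an outlying library such as MS5. DESeq2 ran with its default replacement of outlier counts and limma voom with quality weights. How far each discounted MS5 was not tested.

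Kcnj13, an inward rectifier potassium channel, had 0, 0.166 and 0.758 CPM in stressed females and 0.146, 0.564 and 34.5 in stressed males, with MS5 again the highest and the next male at 0.835. Its log2 difference of 3.97 ± 0.86 (adjusted p = 0.045) became 0.95 ± 0.53 without MS5 (adjusted p = 0.533). The call was also lost without FS1 to FS7 or FS9, with adjusted p of 0.0519 (FS7) to 0.119 (FS9). The gene lies inside Gigyf2 on the opposite strand. Of 11 choroid plexus markers tested all 11 were above 0 with MS5, with a median of 1.83, and 8 without it, with a median of 0.229. Their summed level was 50.2 to 149 CPM in stressed females, 104 to 227 in 8 males and 3367 in MS5. Outside MS5 much of this sum was Prlr, which is also on the list of genes known to differ by sex. Prlr averaged 43.5 CPM in stressed females and 77.9 in the 8 males. The higher sums of these males are therefore no measure of choroid plexus RNA alone. DESeq2, limma voom, the replicate block and a fit of the 18 stressed libraries alone also called neither gene.

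The control differences come from other libraries but from the same fit, and so share its estimate of spread with the stressed ones. All 7 genes had the same sign in controls, and Cckar and Hcrtr1 passed there; these 2 were also the only autosomal genes that passed in controls (0.0128%), where 640 had an unadjusted p under 0.05 (4.08%). No autosomal gene passed the test of whether the sex difference itself differs between stressed and control mice, in edgeR, DESeq2 or limma voom, and 720 had an unadjusted p under 0.05 in edgeR (4.59%). For the 7 genes the adjusted p of that test lay between 0.845 and 0.998. For Cckar the difference of differences was 0.25 (unadjusted p = 0.52), for Greb1 0.31 (0.58), for Gal 0.12 (0.712) and for Hcrtr1 -0.01 (0.985). Over all autosomal genes the median absolute log2 difference was 0.149 in stressed and 0.0903 in control mice, and the rank correlation of the 2 differences across genes, which are not independent replicates, was 0.138.

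Steroid receptors and steroid enzymes followed no single direction. Cyp19a1, the aromatase gene, was the nearest to the threshold: stressed females had 0.255, 1.52 and 2.14 CPM (lowest, median, highest) and stressed males 1.65, 2.74 and 9.71. Of the males 7 lay above the highest female, with MS7 on top and MS5 at the bottom. Cyp19a1 differed by 1.46 ± 0.36 on the log2 scale (adjusted p = 0.198), by 1.57 without MS5 (0.115) and by 1.28 in controls (0.293), and it passed in DESeq2.

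Esr1, estrogen receptor alpha, differed by -0.27 ± 0.27, and Esr2, estrogen receptor beta, by 0.35 ± 0.46. Pgr, the progesterone receptor, differed by 0.25 ± 0.16, and none of the 3 passed (adjusted p = 0.695, 0.766 and 0.546). Over the 13 autosomal genes of this list 8 were above 0 and 5 below, with a median of 0.0737.

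Genes known to differ by sex in the hypothalamus and BNST leaned to males. Of 22 tested 16 were above 0 and 6 below, and 2 passed (Cckar and Greb1). The median was 0.288 against -0.0151 over all autosomal genes and 0.213 in controls. Of all autosomal genes tested 47.3% were above 0 in stressed mice, 49.3% without MS5 and 50.3% in controls. Pappa, a protease that frees insulin-like growth factors, differed by 1.81 (adjusted p = 0.308), Moxd1, a monooxygenase-like gene that marks dimorphic nuclei, by 0.61 (0.378) and Prlr, the prolactin receptor, by 0.86 ± 0.32 (0.378). Of 18 estrogen-responsive genes 11 were above 0 and 7 below with a median of 0.217, and Greb1 and Gal passed.

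Peptides went both ways and only Gal passed. Avp, arginine vasopressin, had 0.287, 1.03 and 3.77 CPM in stressed females (lowest, median, highest) and 1.44, 2.99 and 5.40 in stressed males. It differed by 1.07 ± 0.32 on the log2 scale (adjusted p = 0.378), the same 1.07 as in controls (0.344), and it passed in limma voom and without the 5 myelin-rich libraries. Adcyap1, the gene of the stress peptide PACAP, differed by 1.21 ± 0.38 (adjusted p = 0.378) and by 0.37 in controls.

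Npy, neuropeptide Y, was at 49.5, 65.2 and 218 CPM in stressed females and at 39.2, 46.7 and 57.9 in stressed males. FS1 (218) and FS2 (209) stood far above the other 7 females, of which the highest was at 67.3. The log2 difference was -0.94 ± 0.29 (adjusted p = 0.378), and -0.39 in controls. Sst, somatostatin, differed by -0.79, Penk, proenkephalin, by -0.73, Tac1, which encodes substance P, by -0.56 and Pdyn, prodynorphin, by -0.26, and none passed. In Npy, Penk and Tac1 FS1 was the highest female and in Sst FS2. Without the 5 myelin-rich libraries Npy differed by -0.27, Sst by -0.25, Penk by -0.19 and Tac1 by -0.16, while Pdyn stayed at -0.27.

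Crh, corticotropin-releasing hormone, differed by -0.22 ± 0.21 (adjusted p = 0.665), its receptor gene Crhr1 by 0.13 ± 0.17 (0.778) and Cartpt, the CART peptide gene, by 0.05 ± 0.17 (0.917). The males were spread more widely for Crh, from 4.72 to 26.7 CPM with MS7 the lowest, against 17.0 to 23.8 in females. Over 28 peptide genes 14 were above 0 and 14 below. Kcnq3 and Kcnq5, subunits of the channels behind the M-current, differed by 0.07 ± 0.20 and -0.07 ± 0.18 (adjusted p = 0.898 and 0.884).

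Peptide receptors were mostly above 0. Of 32 neuropeptide receptors 26 were above 0 and 6 below, with a median of 0.204 (0.0628 in controls, 20 and 12), and Cckar and Hcrtr1 passed. Oprm1, the mu opioid receptor, differed by 0.71 (adjusted p = 0.506), Oxtr, the oxytocin receptor, by 0.23 ± 0.14 (0.524) and Npy1r, a receptor of neuropeptide Y, by 0.22 (0.536). The related receptors Hcrtr2 (0.27, adjusted p = 0.663) and Cckbr (-0.11, 0.747) did not pass. The median over the neuropeptide receptors was 0.11 without the 5 myelin-rich libraries and 0.135 without MS7 and MS8.

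**Figure D3:**
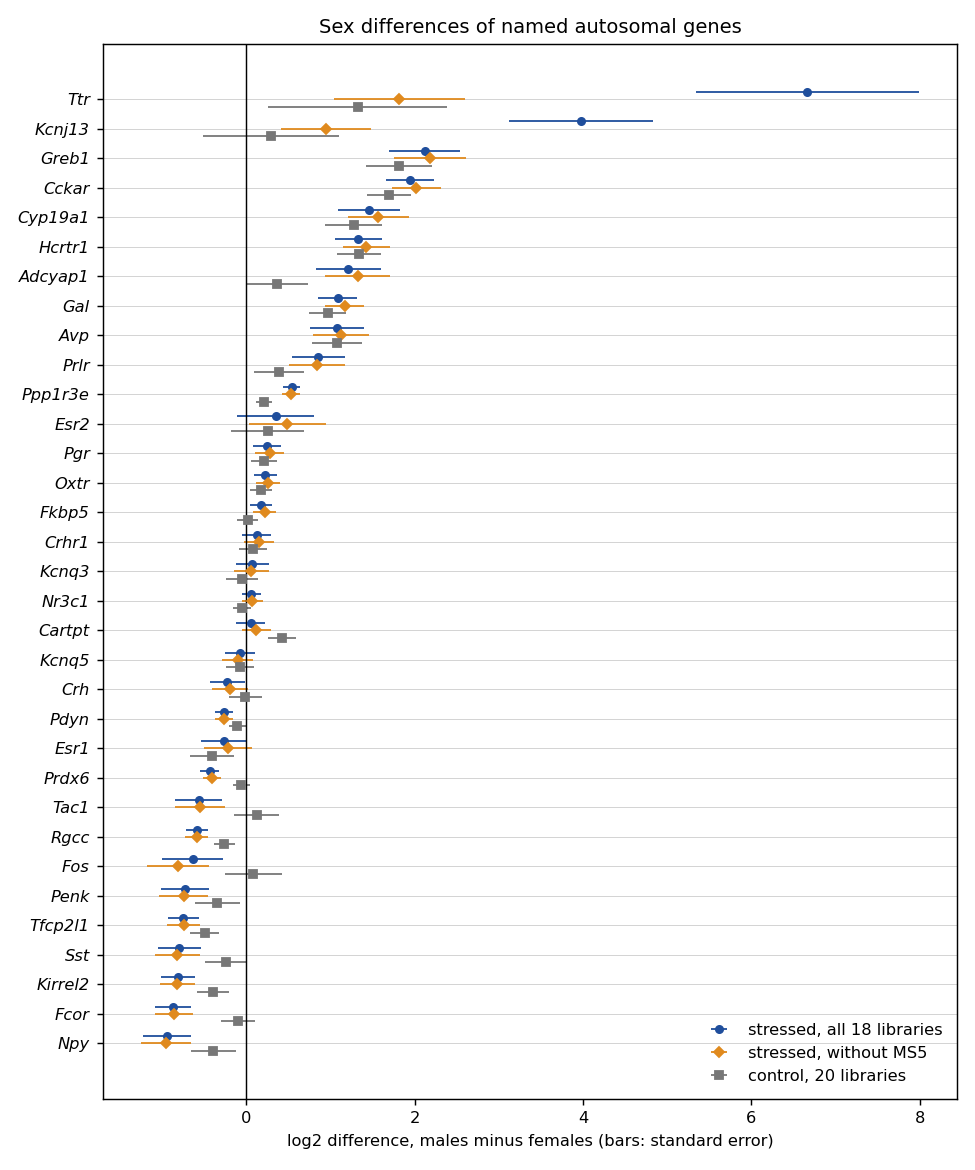
Log2 difference, males minus females, with its standard error, for the 33 named autosomal genes in stressed mice (all 18 libraries and without MS5) and in control mice. Leaving out MS5 moves Ttr from 6.66 to 1.82 and Kcnj13 from 3.97 to 0.95 and moves each of the others by less than its standard error.

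Stress-hormone targets and activity genes lay below 0 in males as groups, with no member passing. Nr3c1, the glucocorticoid receptor, differed by 0.06 ± 0.11 (adjusted p = 0.845) and Fkbp5, a glucocorticoid-induced chaperone that dampens it, by 0.17 ± 0.13 (0.59). Of 24 glucocorticoid receptors and targets 4 were above 0 and 20 below, with a median of -0.306 in stressed mice and -0.349 in controls (3 above, 21 below). Mt2 and Mt1, metallothioneins, differed by -0.94 (adjusted p = 0.288) and -0.95 (0.378). The median was -0.164 without the 5 myelin-rich libraries.

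Of 26 immediate early genes, which neurons switch on within minutes of activity, 1 was above 0 and 25 below, with a median of -0.368 (-0.101 in controls). Fosb differed by -0.70 (adjusted p = 0.378), Egr4 by -0.86 (0.378) and Arc by -0.81 (0.459). Fos differed by -0.64 ± 0.36 (adjusted p = 0.50), with FS6 at 56.4 CPM far above the other females, and by -0.218 without FS6. It differed by 0.0421 in libraries 1 to 5 and by -1.50 in those from 6 up, passing in neither. Bdnf, the growth factor, was the 1 member above 0, at 1.12 (adjusted p = 0.378). The median over the immediate early genes was -0.448 without MS5 and -0.187 without the 5 myelin-rich libraries.

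Nearly all ribosomal protein and oxidative phosphorylation genes lay below 0 in males. Of 73 cytosolic ribosomal proteins 72 were below 0 with a median of -0.566, and 63 had an unadjusted p under 0.05 in that direction, against 8.06% of all autosomal genes. Among 70 oxidative phosphorylation subunits 65 were below 0 and 39 had such a p, with a median of -0.385. None passed after adjustment. FS1 and FS2 held the 2 highest sums of both lists, 22310 and 24970 CPM of cytosolic ribosomal proteins against 7142 to 11790 in the other 16 libraries. Without the 5 myelin-rich libraries the medians were -0.158 for the cytosolic ribosomal proteins and -0.0729 for the oxidative phosphorylation subunits. In controls they were -0.0713 and -0.0287.

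A trend with transcript length was looked for, and the sexes did not differ in it past the threshold. Within a library the rank correlation between a gene's deviation from its mean and its transcript length averaged 0.174 ± 0.108 (SD, n = 9) in stressed males and -0.0132 ± 0.255 (n = 9) in stressed females, a difference of 0.187 (2-sided exact permutation test, p = 0.0614). FS1 (-0.351) and FS2 (-0.40) were the lowest of the 18. Without them the difference was 0.0837 (exact p = 0.259), and without MS5 it was 0.178 (exact p = 0.0905). Lengths were known for 98.4% of the autosomal genes. Across these genes the male minus female log2 difference in stressed mice rose with transcript length (rank correlation 0.404). Genes are not independent replicates, so no p-value is given for it. How much of the gene and list differences goes with transcript length was not tested.

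**Figure D4:**
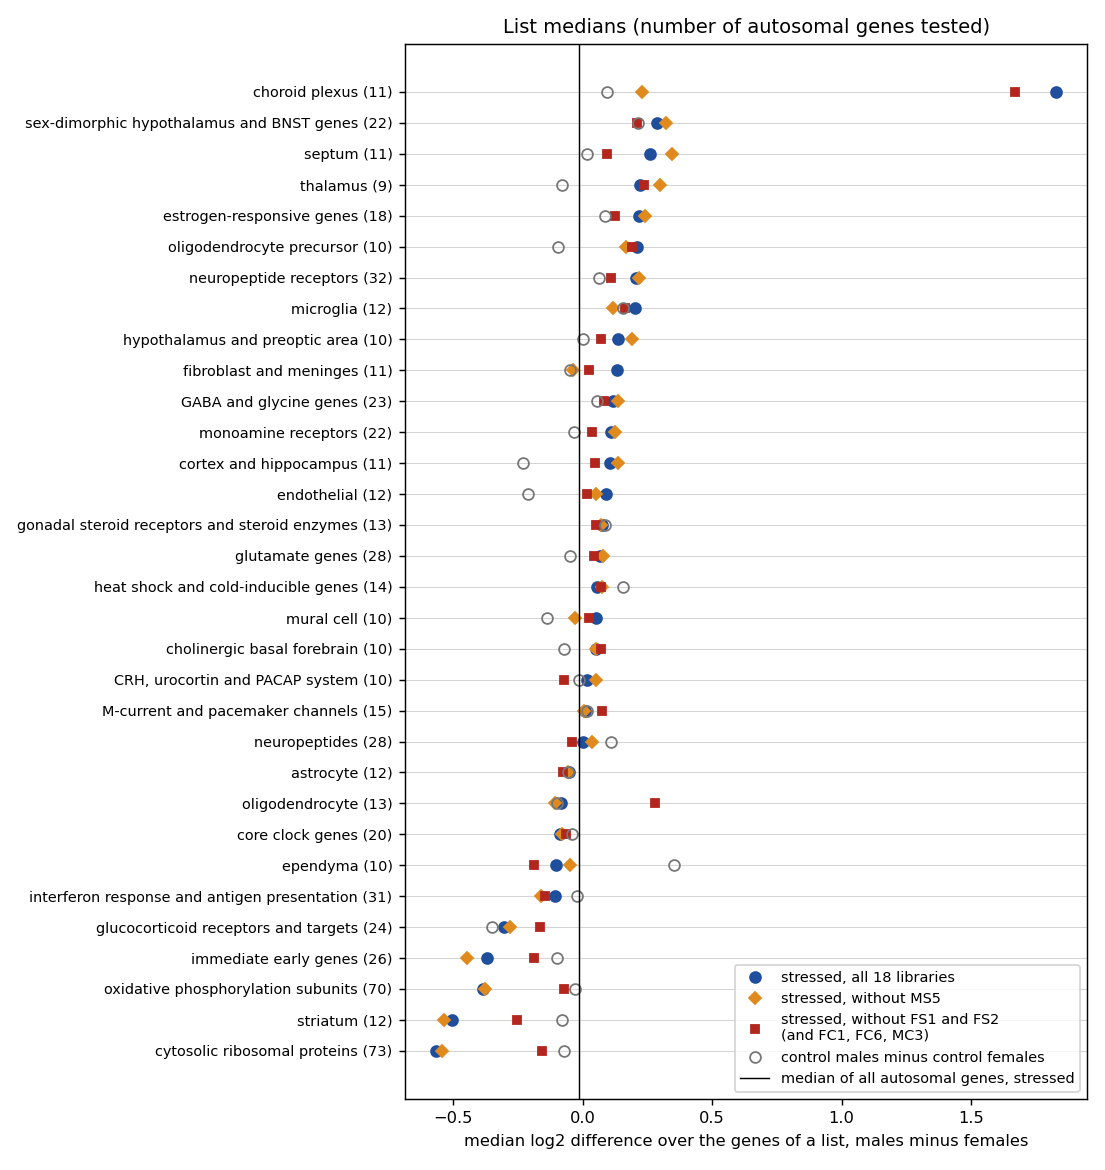
Median log2 difference, males minus females, over the autosomal genes of each list (number tested in brackets) with all stressed libraries, without MS5, without the myelin-rich libraries and in controls. The choroid plexus median falls from 1.83 to 0.229 without MS5, and the medians of cytosolic ribosomal proteins and oxidative phosphorylation subunits are -0.158 and -0.0729 without the 5 myelin-rich libraries.

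The 5 named genes with the smallest p among those lower in males did not pass. They were Rgcc, a cell cycle regulator (-0.58 ± 0.13, adjusted p = 0.108), Tfcp2l1, a transcription factor (-0.75 ± 0.19, 0.198), Fcor, a repressor of the factor Foxo1 (-0.87 ± 0.22, 0.198), Prdx6, an antioxidant enzyme (-0.44 ± 0.11, 0.198), and Kirrel2, an adhesion protein (-0.81 ± 0.20, 0.198). FS2 was the highest female in all 5, and without the 5 myelin-rich libraries the differences were -0.46, -0.55, -0.49, -0.28 and -0.46 in the same order. Tfcp2l1 was at 5.16, 6.36 and 12.4 CPM in stressed females and at 2.35, 4.28 and 5.08 in stressed males, so that every male lay below every female, as in only 1 other gene, the unnamed model 1700030C10Rik (-1.32, adjusted p = 0.344; both together 0.0128% of autosomal genes). Rgcc passed in DESeq2 and without FS6, where 1 gene was called lower.

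A further 7 genes were higher in most stressed males and passed only in other fits. They were picked after their values were seen and form no list of their own. Tbr1 belongs to the cortex and hippocampus markers, of which 6 were above 0 and 5 below (median 0.104), with Fezf2 at -0.83 and Nrgn at -0.83. Slc17a6, the vesicular glutamate transporter VGLUT2, had 6.48, 11.8 and 26.9 CPM in stressed females (lowest, median, highest) and 11.8, 39.5 and 66.4 in stressed males. Cpne9, a calcium-dependent membrane-binding protein, had 1.88, 5.88 and 9.39 in females and 6.46, 19.7 and 24.7 in males. In both genes MS5 was the lowest male, and every other male lay above the female median.

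With all libraries Slc17a6 differed by 1.45 ± 0.39 on the log2 scale (adjusted p = 0.288), Cpne9 by 1.67 ± 0.40 (0.17), Tbr1, a transcription factor of glutamatergic neurons, by 1.57 ± 0.43 (0.305) and Nrn1, a neurite growth protein, by 1.28 ± 0.33 (0.208). Without MS5 the values were 1.57 (0.182), 1.78 (0.0988), 1.69 (0.25) and 1.39 (0.132) in the same order. In controls they were 0.23, -0.32, -0.31 and 0.07. The test of the difference between the stressed and control values gave unadjusted p-values of 0.0275, 0.000809, 0.0027 and 0.00984, each with an adjusted p of 0.845.

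Grik1, a kainate receptor subunit, differed by 0.77 ± 0.19 (adjusted p = 0.161) and by 0.85 without MS5 (0.0713), Cbln1, a synapse organizer, by 1.18 ± 0.30 (0.205) and 1.29 (0.0988), and Clstn2, a synaptic calsyntenin, by 0.60 ± 0.15 (0.205) and 0.66 (0.109). Nrn1, Tbr1 and Cpne9 passed when the 18 stressed libraries were fitted alone, and Grik1, Cpne9, Cbln1 and Nrn1 in DESeq2. Slc17a6 passed only in the stressed libraries without MS5 and with a term for the 2 number sets. That setting was chosen after the data were seen. Clstn2 passed there and without FS7. Of the genes that passed only in another fit, 10 were ranked by library, and all 10 were higher in males. MS5 was the lowest male in 7 of them, which are the 7 described here. In Rxfp3, Nefm and Tmem229b the lowest males were MS3, MS9 and MS4. Fbn2, not among the 10, passed in DESeq2 and limma voom. It differed by 0.57 (edgeR adjusted p = 0.109) and by 0.58 without MS5. Some of the other fits left MS5 out, so its low place in these 7 may follow in part from how the genes were chosen. Summed thalamic markers, a list that holds Slc17a6, were 208 to 358 CPM in females and 259 to 458 in males, and 9 of 9 were above 0 with a median of 0.223 (-0.0791 in controls). Without MS5 8 were above 0. Slc17a6 (1.45) and Calb2 (0.72) had the largest differences of the list, while Tcf7l2 (0.03) and Lef1 (0.003) lay close to 0. Whether the sum of this list reflects thalamic tissue was not tested. Striatal markers, 12 of 12 below 0 with a median of -0.505 (-0.0806 in controls), summed to 1838 to 7961 CPM in females and 1213 to 3533 in males. The highest female sums were those of the myelin-rich FS1 (7961) and FS2 (6283), and the next was FS3 at 4357. The part of tissue makeup in these values was not tested.

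**Figure D5:**
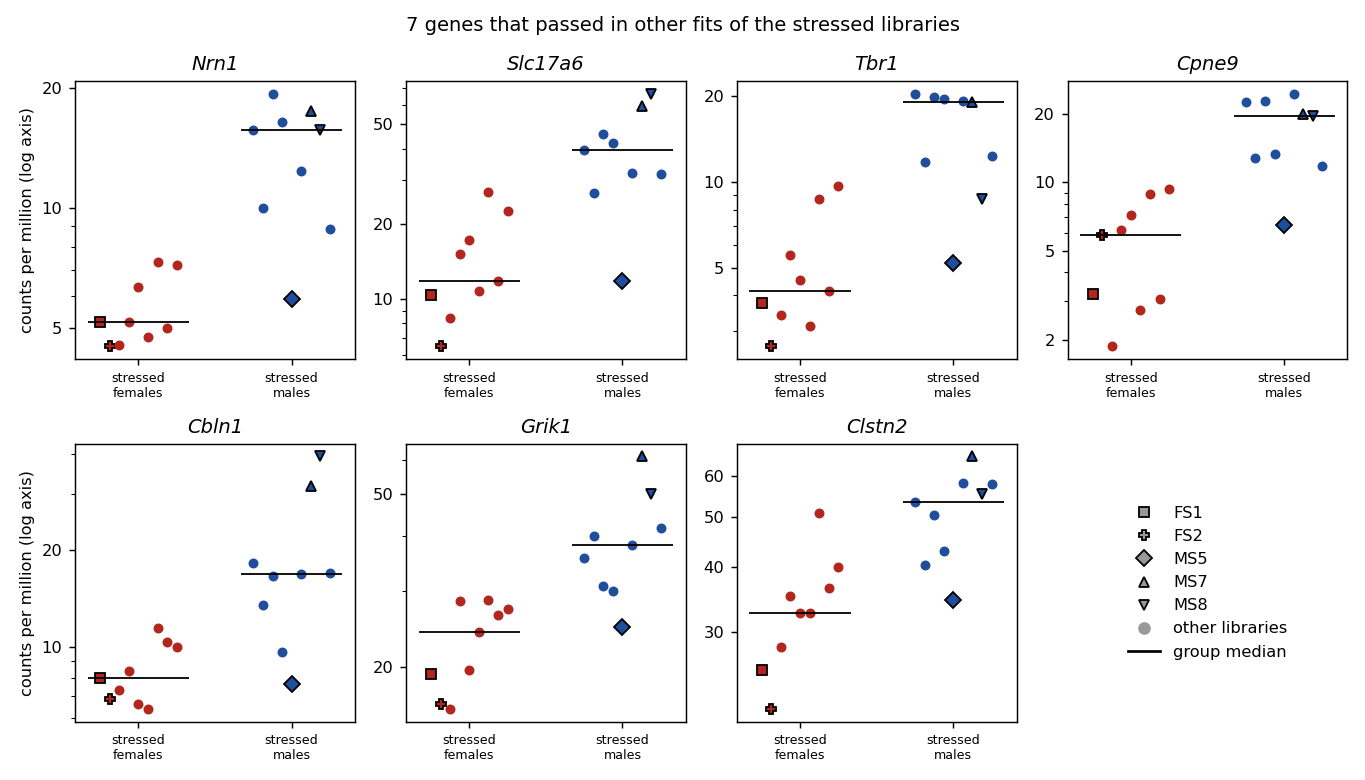
CPM (log axis) of 7 genes that passed only in other fits, one point per stressed library with group medians as lines. Most males lie above the female median in each gene, with MS5 (diamond) the lowest male, for example at 11.8 CPM of Slc17a6 against a male median of 39.5. The genes were chosen after their values were seen, in part from fits without MS5. In Rxfp3, Nefm and Tmem229b, which also passed only in other fits and are not shown, MS5 was not the lowest male.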

How the data were processed

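RNA of 38 microdissections was analysed from 1 table of read counts per gene, as deposited. The authors' counts came from STAR and featureCounts on mm10, and DESeq2 was also used, per the submitters' processing notes; the sources used here do not give their versions, the annotation or the strand setting. Columns were matched to samples by the library names in the labels. Genes were placed on chromosomes by RefSeq GRCm38.p6 symbols (25129 of 25230 matched, 199 by an older symbol), and gene coordinates are from GENCODE M21 on GRCm38. 3439 genes had no count.

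Counts were filtered with filterByExpr by group, normalised by TMM and fitted with edgeR 4.0.16 (R 4.3.3) with 4 group means, the model sex + condition + interaction of the series' design text, on all 38 libraries (biological coefficient of variation 0.266). Quasi-likelihood tests were adjusted by Benjamini-Hochberg over all 16309 genes and called at 0.05. Every adjusted p given without a tool is from this fit. CPM use effective library sizes. Standard errors are the log2 difference over the square root of the F statistic. The code was tested on simulated data. DESeq2 1.42.0 and limma 3.58.1 were alternatives, with other size factors, no filter, subsets of libraries, blocks and each stressed library left out in turn.

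Named genes were those with the smallest p among passing autosomal genes (up to 15 in each direction, or 5 where fewer than 5 passed), up to 4 passing members of each list, genes that depended on MS5, and a panel; some further genes of the panel are not reported here. Genes that passed only in another fit were added after their values were seen. Members, lists and tests were chosen with earlier results of these data known. No 2 libraries of a stressed group agreed within sampling noise (the closest pairs, FS3 with FS5 and MS2 with MS3, had a chi-square of 13.7 and 10.4 per gene). The exact permutation test was used for the length trend only.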

Additional observations from a re-analysis of the deposited data

Results flagged for a closer look

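Single libraries lay far from the rest of their group for 8 of 86 gene and group pairs tested by the gap to the nearest library as a share of the range (Dixon's criterion), where chance gives about 1 in 20. Some of these genes were named because they depended on single libraries, so the count is no test against that share. In stressed males MS5 had 2878 CPM of Ttr with the next library at 41.1, MS5 had 34.5 CPM of Kcnj13 with the next at 0.835, and MS7 had 142.5 CPM of Prlr with the next at 88.4. In stressed females FS8 had 4.55 CPM of Hcrtr1 (next 2.52) and 15.3 CPM of Crhr1 (next 9.42). FS2 had 12.4 CPM of Tfcp2l1 (next 7.61) and 336.4 CPM of Prdx6 (next 247.5), and FS6 had 56.4 CPM of Fos (next 25.7). Ttr and Kcnj13 did not pass without MS5, and Hcrtr1 passed without FS8.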

How the results depend on the processing

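The count of autosomal genes higher in stressed males (7) ranged from 2 to 7 when single libraries were left out, that of genes lower (0) from 0 to 1 and that of genes also passing in controls (2) from 1 to 4; the 0 genes in the test of stressed against control differences stayed at 0. DESeq2 gave 11 higher, 1 lower and 4 also in controls, limma voom 12, 0 and 7, and the 18 stressed libraries alone 6 and 1. A filter, normalisation and fit of autosomal genes alone gave 4 and 1 also in controls, without Hcrtr1 (adjusted p = 0.0661), Gal (0.0661) and Kcnj13 (0.0814). Libraries numbered 1 to 5 gave 1 and 1 and those from 6 up 0 and 0, with fewer samples. Also in controls were 1 without the 5 myelin-rich libraries and 4 with a term for the 2 number sets. Settings chosen after seeing the data gave 2 higher and 1 also in controls without the myelin-rich libraries and MS5, 4 and 1 without MS7 and MS8, 8 and 4 without MS5 with the number-set term, and 26 higher and 3 lower in the stressed libraries without MS5 with that term; the cause was not tested.

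Same-numbered libraries correlated at 0.0984 to 0.456, 8 of 9 pairs over 0.1, and 5 of 9 females matched their own number best. This is a hint of pairing from the data, not from the design. The numbers were not taken as pairs because the labels do not say what they mark and 1 pair (0.0984) missed the criterion that every pair exceed 0.1. A replicate block on the numbers gave 7 higher, 0 lower and 3 also in controls, with Cckar at 1.90; it lost Ttr and Kcnj13 and called Rxfp3 and Cbln1.

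The sign turned in some genes that passed under none of these settings. In libraries 1 to 5 Crh was 0.0366, Cartpt -0.0615, Kcnq3 -0.00261, Fkbp5 -0.027 and Fos 0.0421. In libraries from 6 up Kcnq5 was 0.0257 and Nr3c1 -0.0064. Nr3c1 was also -0.0462 in limma voom, -0.0209 without the myelin-rich libraries and -0.0207 without these and MS5. Without MS7 and MS8 Cartpt was -0.117, Kcnq5 0.0853, Esr2 -0.169 and Crhr1 -0.0275. Leaving out 1 library gave ranges of -0.0351 to 0.132 for Cartpt, -0.127 to 0.014 for Kcnq5 and -0.00754 to 0.264 for Crhr1. Genes at or under about 1 CPM, Kcnj13 among them, rest on few reads, since 1 count was worth 0.0271 to 0.0785 CPM in the stressed libraries.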

Other observations

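Inhibitory genes leaned to males as a group, with 19 of 23 GABA and glycine genes above 0 (median 0.116, and 0.0534 in controls) and none passing. Of all autosomal genes 47.3% were above 0 in stressed mice and 50.3% in controls. Glutamate genes were more even, with 16 above and 12 below 0 (median 0.0652), and so were monoamine receptors, with 13 and 9 (median 0.109). Core clock genes had 7 above and 13 below (median -0.0862). Of 31 genes of the interferon response and antigen presentation 25 were below 0 (median -0.109; -0.0237 in controls).

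Among cell types, 10 of 12 microglia markers were above 0 (median 0.202; 0.118 without MS5; 0.155 in controls, 11 of 12), and their summed level was 177 to 389 CPM in stressed females and 205 to 522 in stressed males, with MS5 the highest. Endothelial markers had 8 of 12 above 0 (median 0.0915; 0.0528 without MS5 and 0.0152 without the 5 myelin-rich libraries) in stressed mice and 0 of 12 in controls (median -0.21). Oligodendrocyte markers, 6 above and 7 below, had a median of -0.0837. Ependymal markers had 3 of 10 above 0 (median -0.103; 5 of 10 and -0.0501 without MS5) and 9 of 10 in controls (median 0.351). None of the genes in these lists passed, and the differences between stressed and control medians were not tested.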
